A study of Mus musculus with 8 samples.

Results

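Blood and lymphatic endothelial genes were followed in ribosome-bound RNA of mouse skin before and after wounding. The group held 35 genes, taken as the rows of the raw count table whose identifier maps to a named list of endothelial markers, out of 53700 identifiers in the table. All 35 passed the filter on low counts and were tested among 18656 genes. The filter took no account of group, and Esm1, Erg and Prox1 passed it only because of their day 7 libraries. Their day 7 values are therefore not separate from the filter. They were divided by role into 12 receptors and their ligands and partners, 11 junction and surface proteins, 5 transcription factors, 4 secreted proteins and enzymes and 3 lymphatic markers.

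The study used mice of genotype AdipoqCreER;R26-NuTRAP. In these mice a Cre recombinase that tamoxifen activates is driven from the adiponectin gene, and it switches on NuTRAP, a reporter that puts GFP on ribosomes. Polysomes that carried the tag were pulled down with an anti-GFP antibody, and each library was made from 20 ng of their RNA. The series title places the samples in a study of PDGF signalling and of adipocytes that turn towards fibroblasts during wound repair. There were 3 uninjured libraries from mice given tamoxifen. A further 2 libraries came from skin at day 3 and 3 from skin at day 7 after wounding, all from mice of the same genotype given tamoxifen and 4 full-thickness wounds with a 5 mm punch. The wounding protocol gives an age of 7 to 9 weeks and the telogen (resting) phase of the hair cycle. The labels name adipocyte as the cell type of every library. They do not say whether replicates came from separate animals, so p-values measure the spread between these libraries, which may be partly technical.

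Endothelial cells line blood and lymphatic vessels. In skin repair, new capillaries sprout into the wound bed under VEGF signals, with the angiopoietin-Tie, Notch, apelin and sphingosine-1-phosphate systems among the pathways that shape and steady them, and factors of the ETS and SOX families keep up the endothelial programme. Lymphatic endothelium is set apart by the transcription factor Prox1 and carries Lyve1 and the VEGF-C receptor Flt4. Adipose tissue is densely supplied with capillaries, whose endothelium holds the lipase anchor Gpihbp1. The adiponectin gene that drives the tag is an adipocyte gene, whereas the genes followed here were listed as markers of endothelium. Whether adipocytes made part of the RNA of any of them was not tested.

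Libraries held 5308959 to 17751689 counts, with 24301 to 29823 genes that had at least 1 count. Levels are given in CPM, counts brought to the same library total after TMM normalization (a scaling that evens out differences in library composition), and differences as log2 fold changes with their standard errors (SE). Values listed per group are in order of replicate number. All 10 adipocyte markers had counts in every library, at a summed level of 49873 to 106390 CPM. The 35 endothelial genes summed to 184, 309 and 195 CPM in uninjured libraries, to 466 and 597 CPM at day 3 and to 998, 1066 and 293 CPM at day 7. Day 7 replicate 3 was thus close to uninjured replicate 2, and day 7 replicates 1 and 2 were above all other libraries. The closeness leaned on 1 gene, Cdh5, at 74.7 CPM in uninjured replicate 2 and 3.71 CPM in day 7 replicate 3. The libraries hold RNA pulled down with tagged ribosomes, and CPM are shares of a library, so these values do not give the endothelial content of skin. More or fewer endothelial cells, more or less RNA per cell and a change in the other RNA pulled down cannot be told apart. Each column name opens with a number that is the same within a group and differs between groups. Its meaning is not given in the sources used here, and whatever it marks cannot be told apart from the time after wounding.

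RefSeq promoter windows (mouse GRCm38.p6) were found for 17 of the 35 genes. The 250 bases before the gene start are shown for the 4 of them with the smallest adjusted p at day 7 against uninjured, so the choice rests on these same data. They are written 5′ to 3′ on the strand of the gene. Capitals mark GGAAG or its reverse complement CTTCC, the core that ETS factors such as Erg and Fli1 recognise, and AACAGGAA, a composite of a forkhead and an ETS site known from endothelial enhancers.
Cldn5 (chr16:18776597-18776846, plus strand): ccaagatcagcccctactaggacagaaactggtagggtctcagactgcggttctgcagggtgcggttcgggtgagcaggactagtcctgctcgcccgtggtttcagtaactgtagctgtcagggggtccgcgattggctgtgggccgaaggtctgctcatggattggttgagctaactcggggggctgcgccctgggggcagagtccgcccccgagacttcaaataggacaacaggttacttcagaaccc
Egfl7 (chr2:26580833-26581082, plus strand, the most upstream of 3 windows): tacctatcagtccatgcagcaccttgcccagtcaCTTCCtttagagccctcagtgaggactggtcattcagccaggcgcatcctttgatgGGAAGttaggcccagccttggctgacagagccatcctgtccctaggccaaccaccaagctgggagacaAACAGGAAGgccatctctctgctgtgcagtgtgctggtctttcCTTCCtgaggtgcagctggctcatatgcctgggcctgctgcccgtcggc
Flt1 (chr5:147726012-147726261, minus strand): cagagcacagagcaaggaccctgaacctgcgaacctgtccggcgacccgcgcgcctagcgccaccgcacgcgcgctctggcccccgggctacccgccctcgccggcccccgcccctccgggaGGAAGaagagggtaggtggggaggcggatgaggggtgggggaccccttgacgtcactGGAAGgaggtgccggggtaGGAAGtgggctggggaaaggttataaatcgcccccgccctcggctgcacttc
Robo4 (chr9:37401722-37401971, plus strand): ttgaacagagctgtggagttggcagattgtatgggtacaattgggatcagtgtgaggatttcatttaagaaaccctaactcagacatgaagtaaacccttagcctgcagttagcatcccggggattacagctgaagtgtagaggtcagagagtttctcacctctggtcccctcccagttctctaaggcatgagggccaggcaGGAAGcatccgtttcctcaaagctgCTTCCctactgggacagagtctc

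The Cldn5 window held none of these motifs, the Egfl7 window 4 copies of GGAAG and 1 of AACAGGAA, the Flt1 window 3 copies of GGAAG and the Robo4 window 2. In the Egfl7 window, AACAGGAA began 92 bases before the gene start and overlapped a copy of GGAAG. Over the same 250 bases and both strands, GGAAG was in 17 of the 22 windows of the 17 genes (77.3%) and in 64.1% of all 32851 windows in the RefSeq table. AACAGGAA was in 3 windows, those of Calcrl, Egfl7 and Emcn, or 13.6% against 2.25% of all windows. The SOX motif AACAAT was in 5 windows, of Calcrl, Emcn, Erg, Mmrn1 and Tek, or 22.7% against 9.42%. The longer ETS motif CCGGAAGT was in 0 of 22 windows and in 2.88% of all. These are counts of letters in short windows, and they show no binding.

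At day 7, most blood vessel genes were higher than in uninjured skin, from cell-cell junction genes (Cldn5, Esam, Pecam1) to receptors (Flt1, Robo4, Aplnr, Eng) and secreted factors (Egfl7, Vwf). Of the 35 genes, 20 rose and 0 fell (edgeR quasi-likelihood test, Benjamini-Hochberg adjusted p under 0.05), against a background of 5.9% of all tested genes that rose and 1.77% that fell, or 7.67% in either direction. The other 15 did not pass the test, 28 of the 35 had an unadjusted p under 0.05, and DESeq2 called 26 higher and 1, Lyve1, lower. The median log2 fold change was 2.24, or 2.15 with Esm1, which had no count in uninjured skin, set at its lower bound, against 0.04 over all tested genes. In 19 genes every day 7 library lay above every uninjured library, which held for 16.7% of all tested genes, and in Lyve1 every day 7 library lay below, as for 13.5% of all.

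The number of calls moved with the libraries in the fit. The count of 20 became 3, 7 and 2 without uninjured replicate 1, 2 or 3, and 3 and 2 without day 7 replicate 1 or 2, while it became 26 without day 7 replicate 3. Over all tested genes the share that rose was 1.28%, 3.28% and 1.68% without uninjured replicate 1, 2 or 3, 1.75% and 1.64% without day 7 replicate 1 or 2, and 14.2% without day 7 replicate 3. In these fits the median log2 fold change of the 35 genes ran from 1.93 to 2.65, and the lowest value of any of the 20 genes that rose was 1.12, for Pecam1. Cldn5 was called in every one of the fits that left out 1 library (highest edgeR adjusted p 0.038), Egfl7 in all but the fit without uninjured replicate 3 (edgeR adjusted p = 0.052), and the other 18 lost the call in 3 to 5 of the 8 fits. Day 7 replicate 3 was the lowest day 7 library for 32 of the 35 genes, and for 16 it was at or below the highest uninjured library. Day 7 replicates 1 and 2 were both above every uninjured library for 28 genes.

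**Figure D1:**
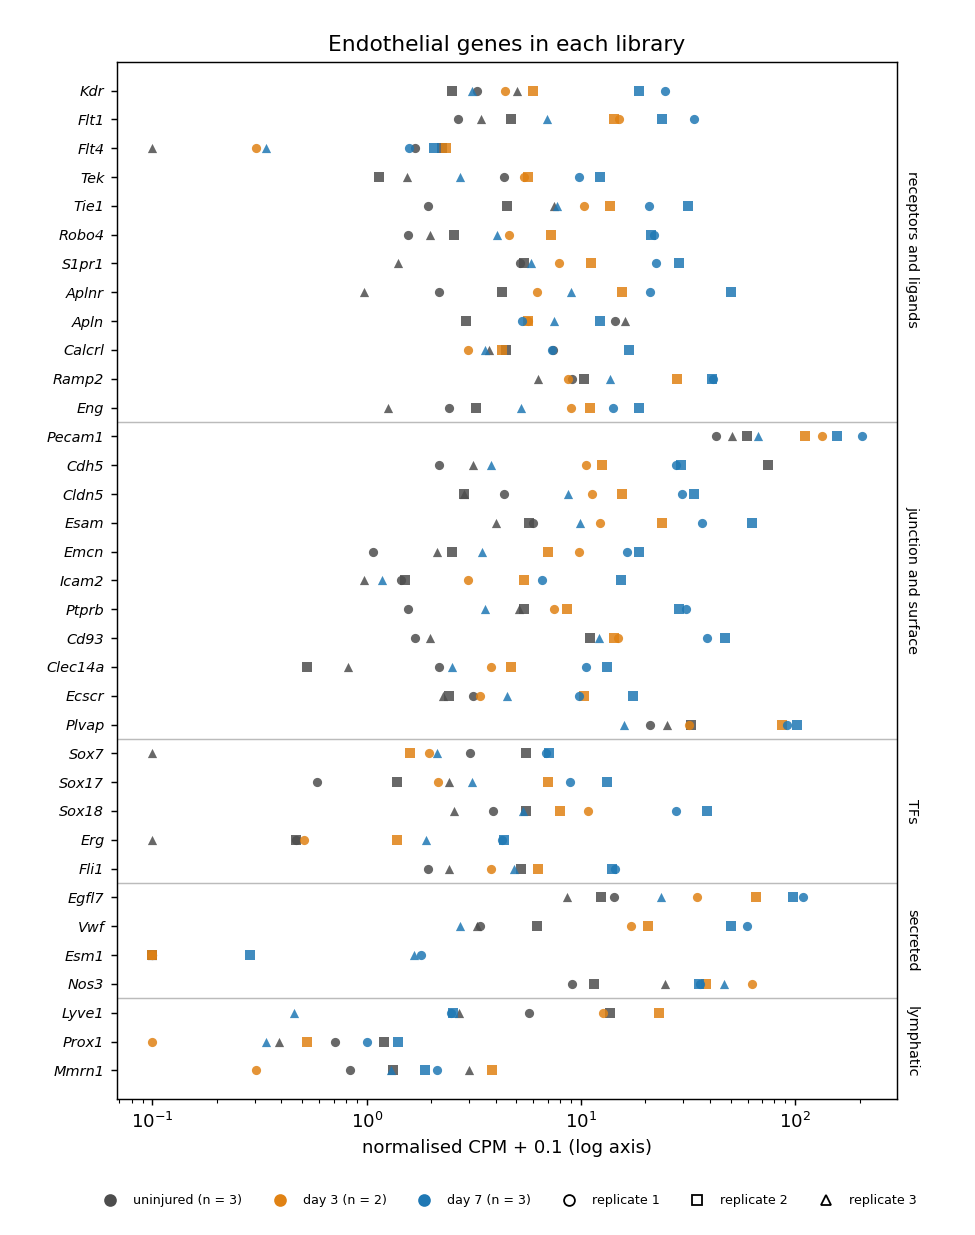
Normalised CPM plus 0.1 on a log axis for each of the 35 endothelial genes in each of the 8 libraries, with colour for the group and symbol for the replicate. Day 7 replicates 1 and 2 (blue circles and squares) sit to the right of all uninjured points for 28 genes, whereas day 7 replicate 3 (blue triangles) is the lowest day 7 library for 32.

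Among the VEGF receptors, Flt1, which binds VEGF-A and placental growth factor tightly, was at 2.56, 4.59 and 3.32 CPM in uninjured libraries, 15.01 and 14.1 CPM at day 3 and 33.6, 23.8 and 6.83 CPM at day 7. Every wound library was above every uninjured one. Flt1 rose at day 7 by 2.59 ± 0.51 (log2 ± SE; edgeR adjusted p = 0.0153). Kdr, the main signalling receptor of VEGF-A, was at 3.17, 2.39 and 4.91 CPM in uninjured libraries, 4.32 and 5.88 CPM at day 3 and 24.5, 18.5 and 2.99 CPM at day 7. Day 7 replicate 3 lay inside the uninjured range, and the log2 fold change of 2.15 ± 0.63 did not pass (edgeR adjusted p = 0.0606), although it did without that library (adjusted p = 0.0034). Flt4, the receptor of VEGF-C in lymphatic endothelium, was at 1.59, 2.14 and 0 CPM in uninjured libraries, 0.206 and 2.25 CPM at day 3 and 1.47, 1.96 and 0.24 CPM at day 7. The groups overlapped throughout. Its log2 fold change at day 7 was -0.07 with all libraries (edgeR adjusted p = 0.972) and ran from -0.60 to 0.59 when 1 library was left out.

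The angiopoietin receptor Tek (Tie2) was at 4.27, 1.04 and 1.44 CPM in uninjured libraries, 5.35 and 5.56 CPM at day 3 and 9.74, 12.2 and 2.64 CPM at day 7. Its day 7 libraries overlapped the uninjured ones, and the log2 fold change of 1.89 ± 0.65 did not pass (edgeR adjusted p = 0.0956). Tie1, the orphan partner of Tek, was at 1.83, 4.41 and 7.37 CPM in uninjured libraries, 10.3 and 13.6 CPM at day 3 and 20.6, 31.4 and 7.67 CPM at day 7. Uninjured replicate 3 and day 7 replicate 3 nearly met, and Tie1 rose by 2.14 ± 0.55 (log2; edgeR adjusted p = 0.0412).

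Robo4, an endothelial guidance receptor that steadies vessel walls, was at 1.46, 2.45 and 1.88 CPM in uninjured libraries, 4.52 and 7.16 CPM at day 3 and 21.7, 21.2 and 3.95 CPM at day 7. No wound library fell into the uninjured range, and Robo4 rose at day 7 by 2.99 ± 0.59 (log2; edgeR adjusted p = 0.0163). S1pr1, the sphingosine-1-phosphate receptor of vessels, was at 5.12, 5.33 and 1.30 CPM in uninjured libraries, 7.81 and 11.01 CPM at day 3 and 22.2, 28.7 and 5.75 CPM at day 7. Its lowest day 7 library lay just above the highest uninjured one, and it rose by 2.24 ± 0.60 (log2; edgeR adjusted p = 0.0468). Eng, a co-receptor of the TGF-beta and BMP family on endothelium, was at 2.32, 3.12 and 1.16 CPM in uninjured libraries, 8.84 and 10.9 CPM at day 3 and 14.04, 18.6 and 5.15 CPM at day 7. All wound libraries were above all uninjured ones, and Eng rose at day 7 by 2.47 ± 0.52 (log2; edgeR adjusted p = 0.0195).

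The apelin receptor passed the test at day 7 and its ligand did not. Aplnr, a receptor of sprouting and venous endothelium, was at 2.07, 4.16 and 0.867 CPM in uninjured libraries, 6.17 and 15.4 CPM at day 3 and 20.9, 50.02 and 8.86 CPM at day 7. All 5 wound libraries were above the uninjured ones, and Aplnr rose at day 7 by 3.41 ± 0.69 (log2; edgeR adjusted p = 0.0173), the largest rise among the receptors that passed, with 4.15 without uninjured replicate 2 and 2.61 without day 7 replicate 2. Apln, the gene of the ligand apelin, was at 14.3, 2.82 and 15.9 CPM in uninjured libraries, 5.55 and 5.56 CPM at day 3 and 5.21, 12.1 and 7.43 CPM at day 7. Uninjured replicate 2 was the lowest library of all and the other 2 uninjured libraries the highest, so the groups overlapped (log2 fold change -0.39 ± 0.56; edgeR adjusted p = 0.675). No test was made of the difference between both genes.

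Calcrl and Ramp2 encode the parts of the adrenomedullin receptor. Ramp2 was at 9.03, 10.3 and 6.21 CPM in uninjured libraries, 8.64 and 28.1 CPM at day 3 and 41.1, 40.7 and 13.5 CPM at day 7. Day 3 replicate 1 was within the uninjured range and all day 7 libraries were above it, with a rise of 1.89 ± 0.49 (log2; edgeR adjusted p = 0.0419). Calcrl was at 7.32, 4.35 and 3.61 CPM in uninjured libraries, 2.88 and 4.17 CPM at day 3 and 7.25, 16.7 and 3.47 CPM at day 7. Only day 7 replicate 2 stood above the uninjured libraries, and the log2 fold change of 0.85 ± 0.54 did not pass (edgeR adjusted p = 0.330). Of the 12 receptors and ligands, 7 rose, 0 fell and 5 did not pass, with a median log2 fold change of 2.15.

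Of the 11 junction and surface genes, 7 rose, 0 fell and 4 did not pass, with a median log2 fold change of 2.62. Cldn5, the claudin of endothelial tight junctions, was at 4.27, 2.76 and 2.74 CPM in uninjured libraries, 11.1 and 15.4 CPM at day 3 and 29.7, 33.6 and 8.62 CPM at day 7. Its lowest wound library was above its highest uninjured library. Cldn5 rose 7.38-fold at day 7, by 2.88 ± 0.48 (log2; edgeR adjusted p = 0.00848), the smallest adjusted p among the 35 genes. It spans chromosome 16 from 18595597 to 18597012 in the deposited table, whose genome build remained unsettled and need not be that of the promoter windows.

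Pecam1 (CD31) is an adhesion protein of endothelium that platelets and some leukocytes also carry. Its mean CPM was the highest of the 35 genes in each group, although Cdh5 exceeded it in uninjured replicate 2. Pecam1 was at 42.6, 59.7 and 50.8 CPM in uninjured libraries, 133 and 111 CPM at day 3 and 204, 156 and 66.7 CPM at day 7. Every wound library was above every uninjured one, while day 7 replicate 3 was below both day 3 libraries. That library was nearer to the uninjured libraries than to the other day 7 libraries. Pecam1 rose by 1.48 ± 0.35 at day 7 (log2; edgeR adjusted p = 0.0309).

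Cdh5 (VE-cadherin), the cadherin of endothelial adherens junctions, departed from this pattern through 1 library. It was at 2.07, 74.7 and 3.03 CPM in uninjured libraries, 10.5 and 12.4 CPM at day 3 and 27.7, 29.2 and 3.71 CPM at day 7. Uninjured replicate 2, with 1219 counts against 17 and 21 in uninjured replicates 1 and 3, stood 24.6-fold above the next uninjured library and above all wound libraries, and all wound libraries were above the other 2 uninjured ones. With all libraries the log2 fold change at day 7 was -0.42 ± 1.07 (edgeR adjusted p = 0.826). Without uninjured replicate 2 it was 2.99 (edgeR adjusted p = 0.060), and without that library and day 7 replicate 3 it was 3.49 (edgeR adjusted p = 0.0027).

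No other of the 35 genes stood as far above both other uninjured libraries in uninjured replicate 2. Cd93 came nearest, at 10.96 CPM against 1.59 and 1.88 CPM in uninjured replicates 1 and 3. The ratio of Cdh5 to Pecam1 counts was 1.25 in uninjured replicate 2, 0.0487 and 0.0597 in uninjured replicates 1 and 3, 0.0787 and 0.112 at day 3 and 0.136, 0.187 and 0.0557 at day 7. Of the 4859 genes at 30 CPM or more in uninjured replicate 2, 2 exceeded both other uninjured libraries more than 8-fold, namely Cdh5 and the keratin gene Krt6b, picked after their values were seen. The same count was 3 genes in uninjured replicate 1 and 2 genes in uninjured replicate 3. Of the 35 genes, only Cdh5, Pecam1 and Plvap reached 30 CPM in uninjured replicate 2, so the count does not cover the others. Uninjured replicate 2 was the deepest library and the highest uninjured library for 21 of the 35 genes. Its part in the Cdh5 value beyond these numbers was not tested.

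Esam, a junction protein of endothelium and platelets, was at 5.85, 5.63 and 3.90 CPM in uninjured libraries, 12.1 and 23.8 CPM at day 3 and 36.7, 62.9 and 9.82 CPM at day 7. It did not overlap between wound and uninjured libraries and rose at day 7 by 2.82 ± 0.57 (log2; edgeR adjusted p = 0.0167), or by 2.20 without day 7 replicate 2 (edgeR adjusted p = 0.067). Emcn (endomucin), a sialomucin of capillaries and veins, was at 0.976, 2.39 and 2.02 CPM in uninjured libraries, 9.67 and 6.95 CPM at day 3 and 16.3, 18.7 and 3.35 CPM at day 7. Day 7 replicates 1 and 2 were again highest and no wound library fell into the uninjured range, and Emcn rose by 2.80 ± 0.61 (log2; edgeR adjusted p = 0.0224).

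Cd93 and Clec14a, related C-type lectin-like proteins of growing vessels, both rose. Cd93 was at 1.59, 10.96 and 1.88 CPM in uninjured libraries, 14.8 and 14.1 CPM at day 3 and 38.8, 46.7 and 12.1 CPM at day 7. Uninjured replicate 2 came within reach of day 7 replicate 3, and the rise was 2.68 ± 0.69 (log2; edgeR adjusted p = 0.0401), or 4.23 without uninjured replicate 2. Clec14a was at 2.07, 0.429 and 0.722 CPM in uninjured libraries, 3.70 and 4.60 CPM at day 3 and 10.4, 13.1 and 2.40 CPM at day 7. Here uninjured replicate 1 was the highest uninjured library, and the rise was 3.05 ± 0.72 (log2; edgeR adjusted p = 0.0309), or 3.93 without that library.

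Ecscr, a surface protein of endothelial cells with a part in their migration, was at 3.05, 2.33 and 2.17 CPM in uninjured libraries, 3.29 and 10.3 CPM at day 3 and 9.74, 17.4 and 4.43 CPM at day 7. Its day 3 replicate 1 was barely above the uninjured libraries, and its rise at day 7 of 2.06 ± 0.56 (log2) was near the threshold (edgeR adjusted p = 0.0488). Icam2, an adhesion protein of resting endothelium, was at 1.34, 1.41 and 0.867 CPM in uninjured libraries, 2.88 and 5.35 CPM at day 3 and 6.45, 15.2 and 1.08 CPM at day 7. Ptprb (VE-PTP), the phosphatase that acts on Tek and VE-cadherin, was at 1.46, 5.33 and 5.05 CPM in uninjured libraries, 7.40 and 8.55 CPM at day 3 and 30.9, 28.7 and 3.47 CPM at day 7. For both, day 7 replicate 3 was inside the uninjured range, and neither passed (Icam2 log2 fold change 2.62 ± 0.77, Ptprb 2.40 ± 0.69; edgeR adjusted p = 0.061 and 0.0584).

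Plvap, which forms the diaphragms of fenestrated and caveolar endothelium, was at 21.0, 32.6 and 25.1 CPM in uninjured libraries, 31.9 and 86.4 CPM at day 3 and 91.6, 102 and 15.8 CPM at day 7. Day 7 replicate 3 was below every uninjured library, and the log2 fold change of 1.41 ± 0.57 did not pass (edgeR adjusted p = 0.145). Per length of transcript, Plvap had the highest mean of the 35 genes in all 3 groups, at an RPKM (CPM per kilobase) of 13.2 in uninjured libraries, 29.8 at day 3 and 35.2 at day 7. In single libraries this order did not always hold: Cdh5 was highest in uninjured replicate 2 (17.8 against 16.4 RPKM for Plvap), Pecam1 in day 3 replicate 1 (21.4 against 16.04) and Nos3 in day 7 replicate 3 (11.3 against 7.96). The group means of Pecam1 came second, at 8.19, 19.6 and 22.9 RPKM. At day 7 they were followed by Egfl7 at 21.4, Cldn5 at 16.9, Sox18 at 14.7 and Esam at 12.7 RPKM, and single day 7 libraries of each gene spread more widely than the gaps between these neighbours. Prox1 was lowest at day 7, at 0.0974 RPKM.

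**Figure D2:**
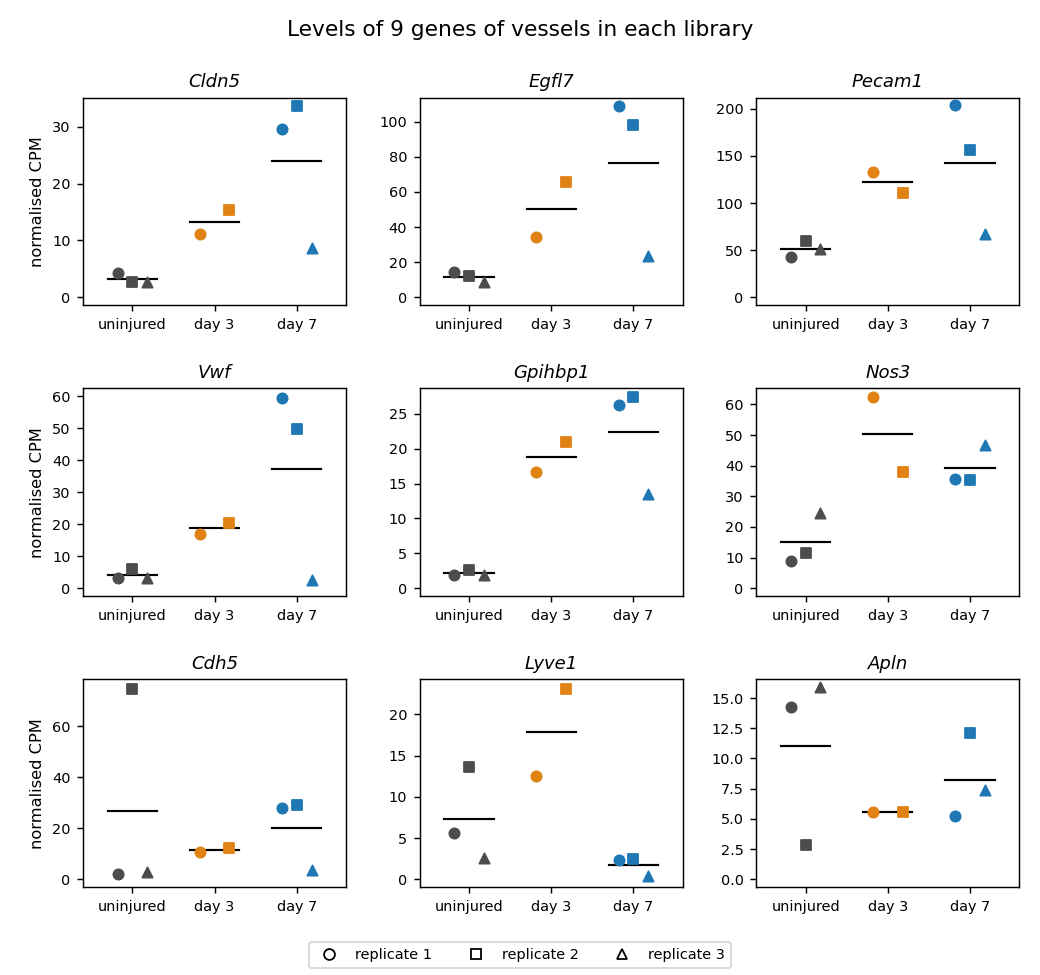
Normalised CPM (linear axes) of 9 vessel genes in each library, with horizontal bars for group means. Cldn5, Egfl7 and Pecam1 are higher in every wound library than in uninjured skin, Cdh5 has a single uninjured library at 74.7 CPM, Lyve1 is lowest at day 7, and Vwf at day 7 runs from 2.64 to 59.5 CPM.

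Among transcription factors, 3 of 5 rose at day 7 and 0 fell, with a median log2 fold change of 2.58. The SoxF factors Sox7, Sox17 and Sox18 act together in vessel formation, with Sox17 prominent in arteries and Sox18 needed for lymphatic development. Sox17 was at 0.488, 1.29 and 2.31 CPM in uninjured libraries, 2.06 and 6.95 CPM at day 3 and 8.83, 13.1 and 2.99 CPM at day 7. It rose by 2.62 ± 0.70 (log2; edgeR adjusted p = 0.0466), with no overlap between day 7 and uninjured libraries. Sox18 was at 3.78, 5.45 and 2.46 CPM in uninjured libraries, 10.7 and 7.91 CPM at day 3 and 27.6, 38.6 and 5.27 CPM at day 7. It rose by 2.58 ± 0.60 (log2; edgeR adjusted p = 0.0287) even though day 7 replicate 3 was below uninjured replicate 2. Sox7 was at 2.93, 5.45 and 0 CPM in uninjured libraries, 1.85 and 1.497 CPM at day 3 and 6.79, 7.00 and 2.04 CPM at day 7. Its uninjured libraries spread as widely as its day 7 libraries (log2 fold change 0.87 ± 0.88; edgeR adjusted p = 0.548).

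Of the ETS factors, Erg, which holds endothelial identity, was at 0.366, 0.367 and 0 CPM in uninjured libraries, 0.411 and 1.28 CPM at day 3 and 4.19, 4.29 and 1.80 CPM at day 7. It was low everywhere, with 3, 6 and 0 counts in uninjured libraries and 2 counts in day 3 replicate 1. The groups did not overlap, but between uninjured and day 3 this rested on counts at or below the floor of 3 per library. Erg rose 12.2-fold at day 7, by 3.61 ± 0.80 (log2; edgeR adjusted p = 0.0241), a fold measured from 9 uninjured counts in all. Fli1, which is also made by blood cells, was at 1.83, 5.14 and 2.31 CPM in uninjured libraries, 3.70 and 6.20 CPM at day 3 and 14.4, 13.9 and 4.79 CPM at day 7. Day 7 replicate 3 fell below uninjured replicate 2, and the log2 fold change of 1.79 ± 0.53 did not pass (edgeR adjusted p = 0.0634).

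Egfl7, a matrix-bound factor secreted by endothelium whose gene also hosts miR-126, was at 14.1, 12.3 and 8.52 CPM in uninjured libraries, 34.5 and 65.6 CPM at day 3 and 109, 97.9 and 23.6 CPM at day 7. All wound libraries were above all uninjured ones, and Egfl7 rose 6.56-fold at day 7, by 2.71 ± 0.50 (log2; edgeR adjusted p = 0.0124). In the deposited table, Egfl7 spans chromosome 2 from 26470026 to 26483132. Its end overlaps Agpat2, an enzyme gene of triglyceride synthesis on the other strand, whose span begins at 26483069, so the shared stretch is short. Over its whole span Agpat2 held 53762 counts against 3365 for Egfl7. The strand setting of the counting is not given in the sources used here. Agpat2 was at 807, 530 and 1007 CPM in uninjured libraries, 1312 and 530 CPM at day 3 and 450, 590 and 1184 CPM at day 7 (log2 fold change at day 7 -0.08). It was highest in libraries other than those with the most Egfl7, and the part of shared reads in the Egfl7 values was not tested.

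Vwf (von Willebrand factor), which captures platelets and is made by endothelium and megakaryocytes, was at 3.29, 6.12 and 3.18 CPM in uninjured libraries, 17.1 and 20.4 CPM at day 3 and 59.5, 49.8 and 2.64 CPM at day 7. Day 7 replicate 3 was below all other libraries, whereas the remaining wound libraries were above all uninjured ones. The fit called the rise of 3.12 ± 0.80 (log2; edgeR adjusted p = 0.0401). The ratio of Vwf to Pecam1 counts was 0.0774, 0.103 and 0.0625 in uninjured libraries, 0.128 and 0.185 at day 3 and 0.292, 0.319 and 0.0395 at day 7, so the spread in Vwf between day 7 libraries was wider than that in Pecam1. Platelet markers followed Vwf only in part. The 8 of them summed to 14.9, 26.1 and 5.63 CPM in uninjured libraries, 32.3 and 84.1 CPM at day 3 and 66.2, 91.5 and 26.8 CPM at day 7, with 3 to 7 of 8 having a count in a library. Unlike Vwf, their sum was higher in day 3 replicate 2 than in day 7 replicate 1. In day 7 replicate 3, where Vwf was lowest, it was just above the highest uninjured sum. Pf4, which some macrophages also make, held most of the sum, and Gp1bb and Gp9 had no count in most libraries. Only Pf4 and Itga2b could be tested and neither passed (edgeR adjusted p = 0.0598 and 0.111). The part of platelets in the Vwf, Esam and Pecam1 values was not tested.

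Nos3, the endothelial nitric oxide synthase, was at 9.03, 11.5 and 24.6 CPM in uninjured libraries, 62.5 and 38.1 CPM at day 3 and 35.8, 35.4 and 46.6 CPM at day 7. It differed from the other members in that day 7 replicate 3 was its highest day 7 library and day 3 replicate 1 its highest library of all. Nos3 rose at day 7 by 1.40 ± 0.36 (log2; edgeR adjusted p = 0.0417). Atg9b, which overlaps Nos3 on the other strand, held 30.9% as many counts and was at 4.03, 4.84 and 4.04 CPM in uninjured libraries, 6.17 and 9.30 CPM at day 3 and 33.7, 7.74 and 4.19 CPM at day 7. Atg9b was highest in day 7 replicate 1 and Nos3 in day 3 replicate 1, and the part of shared reads in the Nos3 values was not tested. Esm1 (endocan), a product of tip cells at the front of vessel sprouts, had no count in the uninjured and day 3 libraries and 15, 2 and 13 counts at day 7. Its mean of 1.15 CPM was at least 3.50-fold higher than a floor of 3 counts per uninjured library, and the test did not pass (edgeR adjusted p = 0.0533). Of the 4 secreted proteins and enzymes 3 rose and 0 fell, with a median log2 fold change of 2.92, or 2.26 with Esm1 at its bound.

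No lymphatic marker passed the test. Lyve1, the hyaluronan receptor of lymphatic capillaries and of a set of tissue macrophages, was at 5.61, 13.6 and 2.5995 CPM in uninjured libraries, 12.5 and 23.1 CPM at day 3 and 2.38, 2.43 and 0.359 CPM at day 7. All 3 day 7 libraries were below all 5 others. The log2 fold change against uninjured was -2.08 ± 0.69 (edgeR adjusted p = 0.0884) and against day 3 -3.35 ± 0.75 (edgeR adjusted p = 0.188). Neither passed, although DESeq2 called both lower (adjusted p = 0.014 against uninjured). Prox1, the master factor of lymphatic fate, was at 0.610, 1.10 and 0.289 CPM in uninjured libraries, 0 and 0.428 CPM at day 3 and 0.906, 1.31 and 0.240 CPM at day 7. Mmrn1 (multimerin), of lymphatic endothelium and platelets, was at 0.732, 1.22 and 2.89 CPM in uninjured libraries, 0.206 and 3.74 CPM at day 3 and 2.04, 1.77 and 1.198 CPM at day 7. Both overlapped in all groups, and neither passed (log2 fold changes 0.24 ± 0.87 and 0.08 ± 0.80; edgeR adjusted p = 0.880 and 0.958).

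Counted with Flt4, 0 of 4 lymphatic genes were called at day 7 and their median log2 fold change was 0.01. The 31 blood vessel genes held all 20 calls and had a median of 2.47, or 2.40 with Esm1 at its bound. The difference between these groups was not tested. The 10 macrophage markers, given here because Lyve1 also marks macrophages, had counts in every library and summed to 132, 218 and 96.9 CPM in uninjured libraries, 210 and 710 CPM at day 3 and 524, 823 and 388 CPM at day 7.

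**Figure D3:**
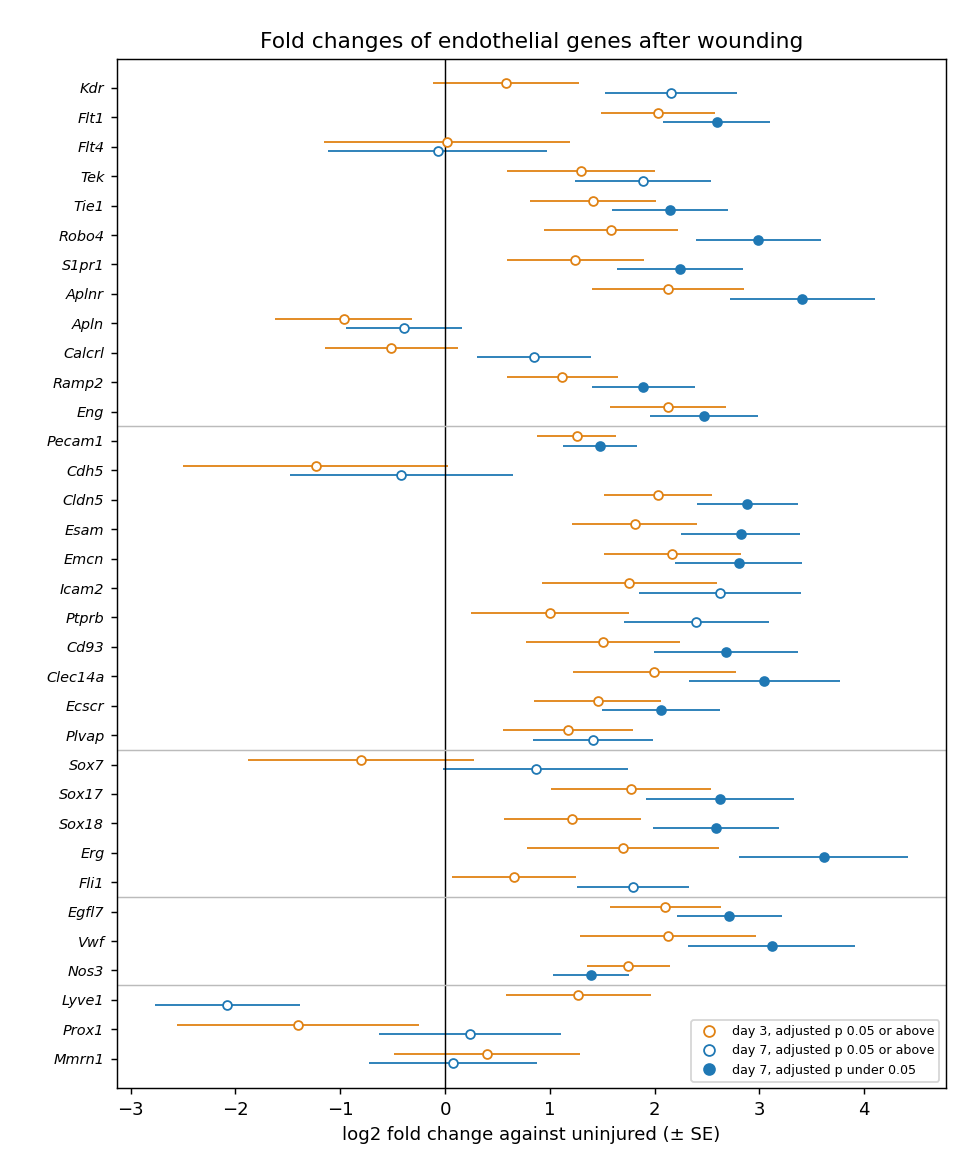
Log2 fold change against uninjured skin with its standard error for 34 of the 35 genes at day 3 (orange) and day 7 (blue), with filled points where the adjusted p is under 0.05 (Esm1 is left out because it had no count in uninjured or day 3 libraries). Filled points occur at day 7 only, for 20 genes, and the lymphatic genes at the bottom lie near or below 0 at day 7.

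At day 3 most of the genes had levels above those of uninjured skin, and none passed the test. Of the 35 genes 0 rose and 0 fell (edgeR adjusted p under 0.05), against a background of 0.0107% of all tested genes that rose and 0% that fell. An unadjusted p under 0.05 was reached by 15 genes, and DESeq2 called 6, namely Flt1, Eng, Cldn5, Emcn, Egfl7 and Nos3. The log2 fold change was above 0 for 29 genes, with a median of 1.30 against 0.02 over all tested genes. Both day 3 libraries lay above all uninjured libraries for 21 genes, which held for 16.9% of all tested genes. Day 3 replicate 2 was above every uninjured library for 29 genes and day 3 replicate 1 for 21. In simulated data of this design, 62% of genes changed 4-fold and 6% of genes changed 2-fold were recovered at day 3, and 67% and 11% at day 7. The changed genes were drawn above a minimum level in uninjured skin and moved up or down, with no shift shared by a whole library. These rates need not hold for genes as low as Erg and Esm1, or where a library stands apart as day 7 replicate 3 did.

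The largest day 3 differences were those of Emcn (log2 fold change 2.17), Aplnr (2.13), Eng (2.13), Vwf (2.12), Egfl7 (2.10), Cldn5 (2.03) and Flt1 (2.03), with edgeR adjusted p of 0.19 to 0.326. The smallest adjusted p was that of Nos3 (edgeR adjusted p = 0.167), at a log2 fold change of 1.75. Apln, Calcrl, Cdh5, Sox7 and Prox1 had log2 fold changes below 0 at day 3, between -0.51 and -1.41. The log2 fold change of Kdr at day 3 was 0.58 ± 0.70, beside 2.03 ± 0.54 for Flt1, and the difference between both receptors was not tested.

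Between day 3 and day 7, 0 of the 35 genes rose and 0 fell (edgeR adjusted p under 0.05), against a background of 0.0643% and 0.0214% of all tested genes, or 0.0858% in either direction. An unadjusted p under 0.05 was reached by 5 genes, and DESeq2 called 1, Lyve1, lower. The log2 fold change was above 0 for 31 genes, with a median of 0.85 against 0.08 over all tested genes. Sox7, Erg and Esm1 were higher in every day 7 library than in both day 3 libraries, as for 14.2% of all tested genes, and Lyve1 was lower in every one, as for 11.4%. The 3 contrasts share libraries, so their values are set side by side and were not compared further.

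Other genes of vessels were read from lists of their pathways, whose counts of calls are to be read against the 5.9% of all tested genes that rose and the 1.77% that fell. Over these lists 22 genes rose and 2 fell. Among those that rose, Angpt2, Cxcr4, Dll4, Hey2 and Bmx passed the low-count filter only because of their day 7 libraries. Of the 22, Gpihbp1 and Ets1 kept the call in every fit without 1 library, and the other 20 lost it in 1 to 5 of those fits, each without an uninjured library or without day 7 replicate 1 or 2. Of 18 angiogenic ligands and receptors, 2 rose at day 7, 0 fell and 16 did not pass, with a median log2 fold change of 0.70. Angpt2, the angiopoietin that loosens vessels for sprouting, was at 0.488, 0.612 and 0.867 CPM in uninjured libraries, 0.823 and 1.82 CPM at day 3 and 4.98, 6.81 and 4.19 CPM at day 7. It rose 8.10-fold (edgeR adjusted p = 0.00996; lost without uninjured replicate 1 or day 7 replicate 2, highest adjusted p = 0.0562), and its day 7 replicate 3 lay close to the other 2. Cxcr4, a chemokine receptor of tip cells and leukocytes, had no count in uninjured libraries and was at 4.30, 1.31 and 1.198 CPM at day 7 (edgeR adjusted p = 0.0210; lost without each of the 3 uninjured libraries in turn and without day 7 replicate 1, highest adjusted p = 0.0702). Pgf and Vegfc, ligands of Flt1 and Flt4, had log2 fold changes of 2.59 and 3.02 and did not pass (edgeR adjusted p = 0.0543 and 0.0812).

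Of 18 genes of Notch and BMP signalling in endothelium, 4 rose and 1 fell, with a median log2 fold change of 1.38. Those that rose were the Notch ligand Dll4 of tip and arterial cells and the Notch targets Hes1, Hey1 and Hey2. Dll4 was at 0, 0.429 and 0 CPM in uninjured libraries, 1.03 and 0.855 CPM at day 3 and 4.64, 5.13 and 2.16 CPM at day 7 (19.5-fold; edgeR adjusted p = 0.0189). Every wound library was above the uninjured ones. Hes1 rose 4.05-fold from a mean of 9.86 to 40.2 CPM (edgeR adjusted p = 0.0190), while Hey2 and Hey1 rose from means of 0.0407 and 0.837 CPM to 1.49 and 11.3 CPM (edgeR adjusted p = 0.0221 and 0.0364). Dll4, Hes1 and Hey1 lost the call in 4 of the 8 fits without 1 library (highest edgeR adjusted p = 0.0734, 0.0763 and 0.125), and Hey2 in each of the 3 fits without an uninjured library (highest edgeR adjusted p = 0.0722). The log2 fold change of Hey1 was 5.31 without uninjured replicate 3, and for Dll4 and Hey2 a single uninjured library held all uninjured counts. Id3, a BMP target made by many cell types, fell from 408 ± 29.9 to 213 ± 38.2 CPM (SD, n = 3 and 3), by 0.94 on the log2 scale (edgeR adjusted p = 0.0399; lost in 5 fits, highest adjusted p = 0.116).

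Arterial and venous markers rose in 4 of 14 tested genes, with 0 lower and a median log2 fold change of 2.19. The 4 were Icam1, an adhesion receptor that inflamed venules share with leukocytes, the arterial kinase gene Bmx and the arterial connexins Gja4 and Gja5 (edgeR adjusted p = 0.0337 to 0.0430). Icam1, Gja4 and Gja5 lost the call in 5 of the 8 fits without 1 library and Bmx in each of the 3 without an uninjured library (highest edgeR adjusted p = 0.128 to 0.211). Without day 7 replicate 2 the log2 fold change of Gja4 was 1.57, against 2.66 with all libraries. Gja5 was at 0.732, 1.71 and 1.59 CPM in uninjured libraries, 1.85 and 4.06 CPM at day 3 and 9.74, 13.997 and 1.92 CPM at day 7. As for Vwf and Plvap, day 7 replicate 3 stayed near the uninjured libraries while replicates 1 and 2 were far above. Capillary genes rose in 5 of 13, fell in 1 and had a median of 2.01.

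Among capillary genes, Gpihbp1, which anchors lipoprotein lipase on the capillary wall of fat and muscle, was at 1.95, 2.57 and 1.88 CPM in uninjured libraries, 16.7 and 21.0 CPM at day 3 and 26.3, 27.3 and 13.5 CPM at day 7. The groups were far apart at both times. Gpihbp1 rose 10.3-fold at day 7 (edgeR adjusted p = 0.00118), a call kept in every fit without 1 library, and it was 1 of only 2 genes of the whole table called at day 3 (log2 fold change 3.11 ± 0.38; edgeR adjusted p = 0.0436). The other was Slc5a5, an iodide transporter outside the lists. Both day 3 calls were lost in 5 of the 8 fits without 1 library, each of those without an uninjured library or without day 7 replicate 1 or 2 (highest edgeR adjusted p = 0.343).

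Meox2 rose 9.75-fold and Sparcl1 5.35-fold at day 7, and Aqp1 and Btnl9 rose as well (edgeR adjusted p = 0.0133, 0.0221, 0.0364 and 0.0341). Meox2, Aqp1 and Btnl9 lost the call in 4 and Sparcl1 in 5 of the 8 fits without 1 library (highest edgeR adjusted p = 0.0578, 0.133, 0.121 and 0.0886). The log2 fold change of Sparcl1 was 1.72 without day 7 replicate 2, against 2.42 with all libraries, and without uninjured replicate 2 those of Aqp1 and Btnl9 were 3.24 and 4.35, against 2.63 and 2.82. Timp4, a protease inhibitor of the capillary list that adipocytes also make, was at 140, 88.0 and 56.0 CPM in uninjured libraries, 16.7 and 19.2 CPM at day 3 and 12.6, 10.9 and 7.43 CPM at day 7. It fell by 3.19 on the log2 scale at day 7 (edgeR adjusted p = 0.00142), kept the call in every fit without 1 library, and every wound library was below every uninjured one.

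Further endothelial transcription factors rose in 3 of 16 (Elk3, Ets1 and Bcl6b; edgeR adjusted p = 0.00958, 0.00996 and 0.0261), with 0 lower and a median of 1.43. Ets1, an ETS factor of endothelium and lymphocytes, was at 4.63, 3.49 and 2.31 CPM in uninjured libraries, 16.5 and 8.98 CPM at day 3 and 26.4, 24.1 and 9.94 CPM at day 7. All wound libraries were above all uninjured ones. Tip cell and vessel matrix genes rose in 5 of 15 (Angpt2, Cxcr4, Adamts4, Hspg2 and Cd34), with 0 lower and a median of 1.35. Of these, Adamts4 and Hspg2 lost the call in 5 and Cd34 in 4 of the 8 fits without 1 library (highest edgeR adjusted p = 0.0964, 0.111 and 0.184). Bcl6b lost it in 5 and Elk3 in 1, without uninjured replicate 1 (highest edgeR adjusted p = 0.114 and 0.0502). Of 9 further lymphatic genes tested, 1 rose, Thy1, which fibroblasts also make (edgeR adjusted p = 0.0499; lost in 4 fits, and with a log2 fold change of 2.77 against 2.04 without uninjured replicate 2), while Stab1, Gja1 and Pdpn did not pass, and the median was 0.94.

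Several marker lists of other cell types also held calls at day 7, and not all of them followed the endothelial genes from library to library. Pericyte and mural genes rose in 4 of 11 at day 7 (Acta2, Pdgfrb, Myh11 and Notch3) and fell in 1 (Des, which muscle fibres also make). Acta2 kept the call in every fit without 1 library, Pdgfrb, Myh11 and Notch3 lost it in 5 and Des in 3. Macrophage genes rose in 3 of 10 (Cd14, Tyrobp and Lyz2), luminal epithelial genes in 8 of 9 and erythroid genes in 2 of 5, while all 8 skeletal muscle genes and 1 of 10 adipocyte genes (Pnpla2) fell. Tyrobp lost the call in 4, Lyz2 in 3, Cd14 in 1 and Pnpla2 in 5 of the 8 fits without 1 library. Such losses are not given here for the luminal epithelial, erythroid and muscle genes. Of 5 lymphocyte and 7 keratinocyte genes tested, 0 passed (edgeR; 0 with an unadjusted p under 0.05). Luminal epithelial genes summed to 12.3 to 29.2 CPM in uninjured libraries, 1478 and 27.9 CPM at day 3 and 1147, 1231 and 564 CPM at day 7. Day 3 replicate 2, with the lower sum of these genes, had the higher endothelial sum of both day 3 libraries.

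On the scale of mean log2 CPM minus the mean of uninjured libraries, the 31 blood vessel genes were at 2.52, 2.72 and 0.75 at day 7 and at 1.06 and 1.52 at day 3. Adipocyte markers were at -1.25, -0.76 and -0.07 at day 7, so the library with the least endothelial RNA among day 7 libraries had adipocyte markers nearest to uninjured skin. Pericyte markers were at 1.29, 1.63 and 0.50 at day 7, in the same order of libraries as the blood vessel genes. Skeletal muscle markers were at -2.87, -2.13 and -2.19, and did not set day 7 replicate 3 apart. The part of the cell make-up of each library in the endothelial values was not tested.

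**Figure D4:**
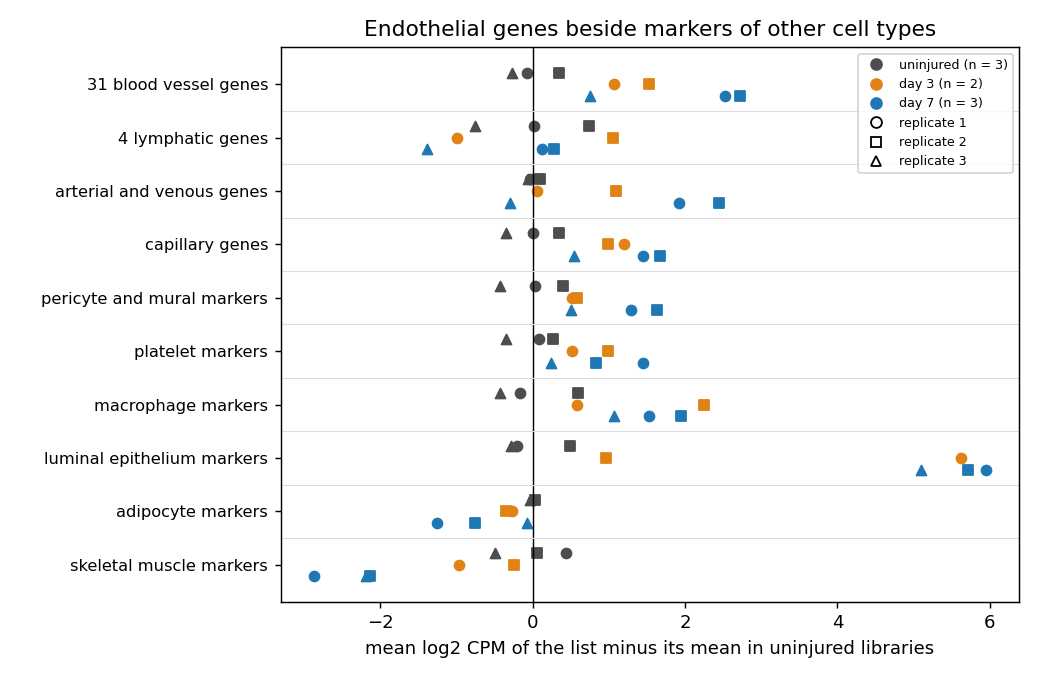
Mean log2 CPM of each gene list minus its mean in uninjured libraries, for each of the 8 libraries, with colour for the group and symbol for the replicate. The 31 blood vessel genes lie at 2.52, 2.72 and 0.75 at day 7, the 4 lymphatic genes at 0.12, 0.29 and -1.38, and luminal epithelium markers at 5.62 and 0.96 in the 2 day 3 libraries.

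Of the 35 genes, 13 share part of their span with another gene in the deposited table. For 8 of these the overlapping gene held, over its whole span and not the shared stretch alone, at least 10% as many counts. Besides Egfl7, Nos3 and Esm1, these were Eng with Fpgs, Plvap with Gtpbp3, Ramp2 with Vps25, Ecscr with 1700066B19Rik and Fli1 with Gm37474. Esm1 overlaps Gzmk, whose 13 counts were all in day 7 replicate 2, where Esm1 had 2. Gm37474, on the same strand as Fli1, held 24.3% as many counts and was at 0.366, 0.184 and 0 CPM in uninjured libraries, 2.67 and 1.07 CPM at day 3 and 6.00, 3.55 and 0.359 CPM at day 7 (edgeR adjusted p = 0.0433), so it was highest in the same libraries as Fli1. Values of these 8 genes are uncertain to the extent that reads in shared stretches were assigned to either gene.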

How the data were processed

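Raw read counts per gene were deposited by the authors, unnormalised, with 1 column per library for 8 libraries. Per the submitters' processing notes, STAR 2.7.10b, featureCounts 2.0.8, DESeq2 and the build mm10 were used; strand setting and treatment of multi-mapping reads: not given in the sources used here. Of 53700 identifiers, 52093 matched a symbol (GENCODE M21), and the 1607 others held 0.0535% to 0.493% of a library's counts. Of 52147 identifiers found in that GRCm38 annotation, 1543 shared its start coordinate, so the build of the table's coordinates is not settled. No per-sample column was left unmapped.

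Counts were TMM-normalised and tested in R 4.3.3 with edgeR 4.0.16 (quasi-likelihood F test, two-sided, expression filter at a minimum count of 10, 1 mean per group over all 8 libraries, Benjamini-Hochberg adjustment over 18656 genes at 0.05). Levels per length used the gene lengths of the table. Alternatives were other scalings, filters and designs, DESeq2 1.42.0, a replicate block and leaving out each library. The procedure was tested on simulated data drawn from the means of uninjured libraries and the real library sizes, with 100 genes per fold size. At day 7, 16567 genes were tested with 7 false calls, and at day 3 16721 with 4. A floor of 3 counts, 0.169 to 0.565 CPM before normalization, covers counting error only.

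The 35 genes and all lists were chosen with earlier results of these data known. All 35 are named; of every other list, up to 4 genes with the smallest adjusted p at day 7 against uninjured are named, and further genes only in counts of 5 or fewer. Libraries agreed less closely than sampling noise would give, so none was counted as a copy of another.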

Additional observations from a re-analysis of the deposited data

How the results depend on the processing

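The count of 20 genes that rose at day 7 was 19 to 20 with DESeq2 size factors, upper-quartile scaling, a minimum count of 30 or only the 2 groups compared, 27 with no filter, 26 with DESeq2, 26 without day 3 replicate 1 and day 7 replicate 3, and 26 without uninjured replicate 2 and day 7 replicate 3, a pair chosen after the data were seen. Without 1 library it ranged from 2 to 26. The count that rose at day 3, 0 with all libraries, was 14 with no filter, 6 with DESeq2, 6 without day 3 replicate 1 and day 7 replicate 3, 2 without uninjured replicate 2 and day 7 replicate 3 (Cd93 and Vwf), and 0 to 3 without 1 library. With no filter 1 gene fell at day 3 (Cdh5). With no filter and with DESeq2, 1 gene, Lyve1, fell at day 7 against uninjured and against day 3. The cause of these shifts was not tested.

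Same-numbered libraries of different groups correlated between -0.07 and 0.20, not all above 0.1. Of the 6 uninjured and day 7 libraries, 3 correlated best with their own number in the other group. The mean of each group was removed first, which constrains such correlations in groups this small. They cannot settle whether equal numbers mark a pairing. With the replicate number as a block, 23 genes rose and 1, Lyve1, fell at day 7 against uninjured, and 1, Lyve1, fell against day 3. Under that block the log2 fold change of Flt4 turned to 0.20 at day 7, -0.62 at day 3 and 0.82 between day 3 and day 7, and that of Cdh5 at day 7 to 0.32.

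Without day 3 replicate 1 and day 7 replicate 3, the log2 fold changes at day 7 of Flt4 and Cdh5 turned to 0.37 and 0.047. Without uninjured replicate 2 and day 7 replicate 3 they were 1.06 and 3.49, those at day 3 of Cdh5 and Sox7 were 2.18 and 0.14, and that of Flt4 between day 3 and day 7 was 0.37. With 1 library left out, some signs turned. At day 7 against uninjured, log2 fold changes ran from -0.60 to 0.59 for Flt4, -0.96 to 2.99 for Cdh5, -0.078 to 0.84 for Prox1 and -0.28 to 0.74 for Mmrn1. At day 3 they ran from -2.60 to 0.78 for Flt4, -0.0090 to 1.71 for Ramp2, -1.75 to 2.17 for Cdh5, -1.35 to 0.14 for Sox7 and -2.89 to 1.23 for Mmrn1. Between day 3 and day 7 they ran from -0.86 to 2.51 for Flt4, -0.028 to 0.72 for Eng, -0.16 to 0.56 for Pecam1, -0.12 to 1.41 for Icam2, -0.32 to 1.14 for Plvap, -0.67 to 0.034 for Nos3 and -1.17 to 2.95 for Mmrn1. No gene called with all libraries turned its sign at day 7 against uninjured under these settings. At this depth a count of 0 allows a level of up to 0.169 to 0.565 CPM, by library.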
